A study of Mus musculus with 6 samples.

Results

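Interleukins and their receptors were examined in the larger proximal airways of mice that carried floxed Foxp1 and Foxp4 together with a Cre driver. These mice were set against control mice labelled with the Cre driver only. Members were all genes measured by a row with exactly 1 gene symbol in the array annotation, where that symbol was Il followed directly by a digit, or was Tslp or Crlf2. There were 78 of them among 19938 genes, measured by 82 of 35556 rows, and a gene with several rows was represented by its brightest one, averaged over the 6 arrays. Of the 78, 39 stood in the ligand lists, with antagonists and Il18bp among them, and 37 stood in the receptor lists. Il34, a ligand of the CSF1 receptor, was kept apart, and Il1bos is annotated as a long noncoding RNA. The receptor genes Il1rl1, Il1r1, Il2rg and Il11ra1 were not analysed here, nor were 3 rows that name several genes, among them Il22 and Il4i1.

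The mutant group held 3 arrays from mice of the genotype Scgb1a1-cre:Foxp1flox/flox:Foxp4flox/flox, and the control group held 3 arrays from mice with Scgb1a1-Cre and no floxed allele in their labels. All mice were 9 weeks old and of mixed C57BL/6 and 129X1 background. Scgb1a1 encodes the secretory protein of club cells, so the promoter directs Cre to airway secretory cells and their descendants, and the other cells of a dissected airway keep Foxp1 and Foxp4. Airways were cut by hand out of stained frozen lung sections, and the RNA was amplified, labelled and hybridised to 1 array per sample.

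Interleukins are secreted signals through which epithelium, stroma and immune cells address one another. Damaged airway epithelium releases the alarmins IL-33, IL-25 and TSLP, which act on innate lymphoid cells, mast cells and dendritic cells and start type 2 responses carried by IL-4, IL-5 and IL-13. Type 17 cytokines act back on the epithelium and call in neutrophils, and the receptors of IL-2, IL-7 and IL-21 are found mainly on lymphocytes.

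The values were log2 expression values, with array medians of 5.89 to 5.95 and correlations of 0.972 to 0.993 between arrays across genes. Scgb1a1 read 12.5, 12.6 and 12.5 on the mutant arrays, against 12.4, 12.1 and 12.3 on the control arrays, and 10 airway epithelium markers had means of 9.56 to 10.2 in the mutant group and 9.62 to 10.02 in the control group. Foxp1 read 9.24, 9.34 and 9.31 on the mutant arrays and 9.42, 9.62 and 9.55 on the control arrays, a difference of -0.23 (adjusted p = 0.444 by limma over all genes). Foxp4 read 8.41, 7.77 and 8.49 on the mutant arrays and 8.77, 9.01 and 8.95 on the control arrays, a difference of -0.69 (adjusted p = 0.339 by limma). Neither targeted gene passed the threshold, although in both cases the groups were separate, with the mutant arrays lower. Arrays differed within groups in lymphocyte markers, on which control arrays 2 and 3 stood above the other 4. Means of 10 T cell markers were 5.91, 6.64 and 5.89 on the mutant arrays and 6.16, 8.09 and 7.997 on the control arrays. Those of 8 B cell markers were 5.37, 7.60 and 5.54 on the mutant arrays and 5.89, 9.10 and 8.83 on the control arrays.

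No interleukin or receptor gene passed the test. Of the 78 members, 0 had an adjusted p under 0.05 in limma, with adjustment over all genes, beside 0.266% of all genes (53 of 19938). The smallest adjusted p among the members was 0.345, for Il7. At an unadjusted p under 0.05 there were 8 members, 3 higher and 5 lower in mutant airways, which is 10.3% of the members beside 10.1% of all genes. The mutant arrays all lay above the control arrays for 8 members, Il7, Tslp, Il18r1, Il10rb, Il1f5, Il1f8, Il31 and Il34, which is 10.3% beside 9.33% of all genes. They all lay below for 4 members, Il17a, Il10, Il2 and Il17f, which is 5.13% beside 5.64% of all genes. These shares are near the background of the array as a whole. The nearest mutant and control arrays were nearly level for several of these members, among them Il10rb, Il34, Il17f and Il10.

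Differences of mutant minus control ran between -1.56 and 0.44 on the log2 scale, with a median of 0.01 over the members and 0.02 over all genes. Of the members, 41 lay above 0 and 37 below, and 72 differed by less than 0.5. No member was higher by 0.5 or more, and 6 were lower by 0.5 or more, all of them receptors: Il2rb, Il21r, Il7r, Il1r2, Il2ra and Il10ra. The shares of all genes beyond 0.5 were not counted, so these counts cannot be set against the array as a whole. All 6 receptors belong to the 17 members (21.8%) for which control arrays 2 and 3 stood above the other 4 arrays, an order found in 9.61% of all genes. The array gives no detection calls, and 46 members (59.0%) had a mean under the median of all rows, beside 40.7% of all genes, so many members were measured at low signal. In a bulk sample, fewer cells of a type and less RNA per cell cannot be told apart.

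**Figure D1:**
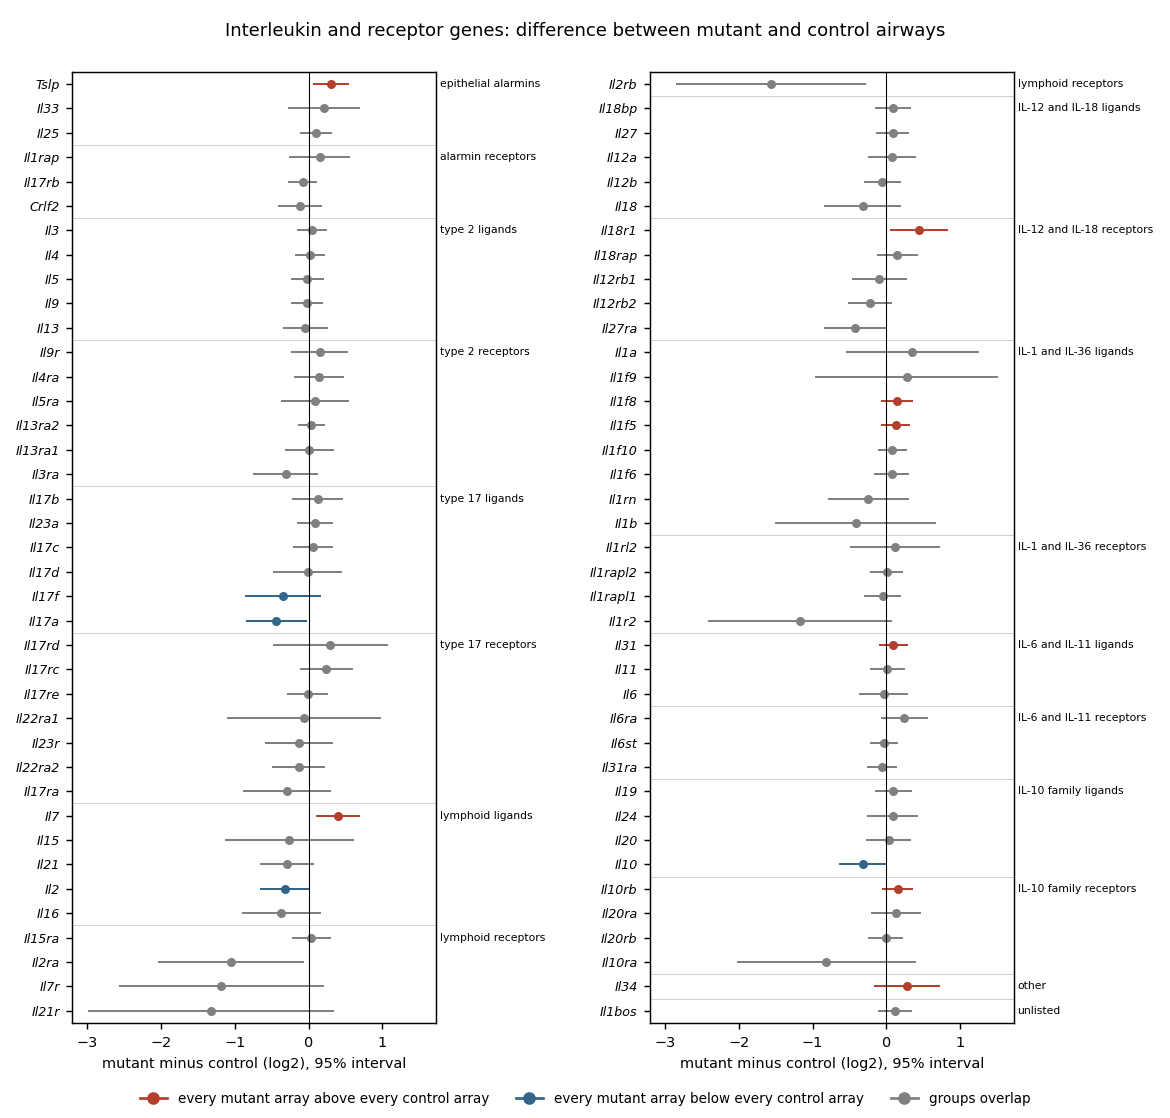
Log2 difference of mutant minus control airways for the 78 members, grouped by role, with 95% confidence intervals from limma (3 arrays per group). Most points lie within 0.5 of 0, and the lowest points, down to -1.56 for Il2rb, belong to receptor genes.

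The epithelial alarmins were set apart first. Tslp, whose product acts on dendritic cells and lymphoid cells, read 5.44, 5.45 and 5.25 on the mutant arrays, against 5.13, 5.12 and 4.96 on the control arrays. Every mutant array lay above every control array, and the difference was 0.31 (SE 0.0957, 95% interval 0.08 to 0.54, adjusted p = 0.372 by limma). Il33, which encodes a nuclear cytokine released on cell damage, read 8.11, 8.80 and 8.63 on the mutant arrays, against 8.25, 8.51 and 8.16 on the control arrays. The groups overlapped, with mutant array 1 the lowest of all 6, and the difference was 0.21 (95% interval -0.26 to 0.68, adjusted p = 0.817 by limma). Il25, the alarmin of tuft cells, read 5.28, 5.24 and 5.13 on the mutant arrays and 5.11, 5.07 and 5.18 on the control arrays. Its groups overlapped too, at a difference of 0.10 (SE 0.0818, adjusted p = 0.767 by limma).

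The receptor chains of the alarmins gave small differences of both signs. Crlf2, the TSLP-binding chain, read 6.47, 6.05 and 6.25 on the mutant arrays, against 6.39, 6.41 and 6.33 on the control arrays, a difference of -0.12 (95% interval -0.40 to 0.16). Il17rb, the chain that binds IL-25, read 5.07, 5.16 and 5.21 on the mutant arrays, against 5.23, 5.21 and 5.25 on the control arrays, a difference of -0.08 (95% interval -0.27 to 0.10). The groups overlapped for both: mutant array 1 was the highest of the 6 for Crlf2, and mutant array 3 lay within the control values for Il17rb. Il1rap, the chain shared by the receptors of IL-1 and IL-33, differed by 0.15 (95% interval -0.25 to 0.54). Over the 6 alarmin and alarmin receptor genes, 4 lay above 0 and 2 below, with a median of 0.12 beside 0.02 for all genes, and none passed the test. That median was -0.014 with array weights, so it has no settled sign.

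**Figure D2:**
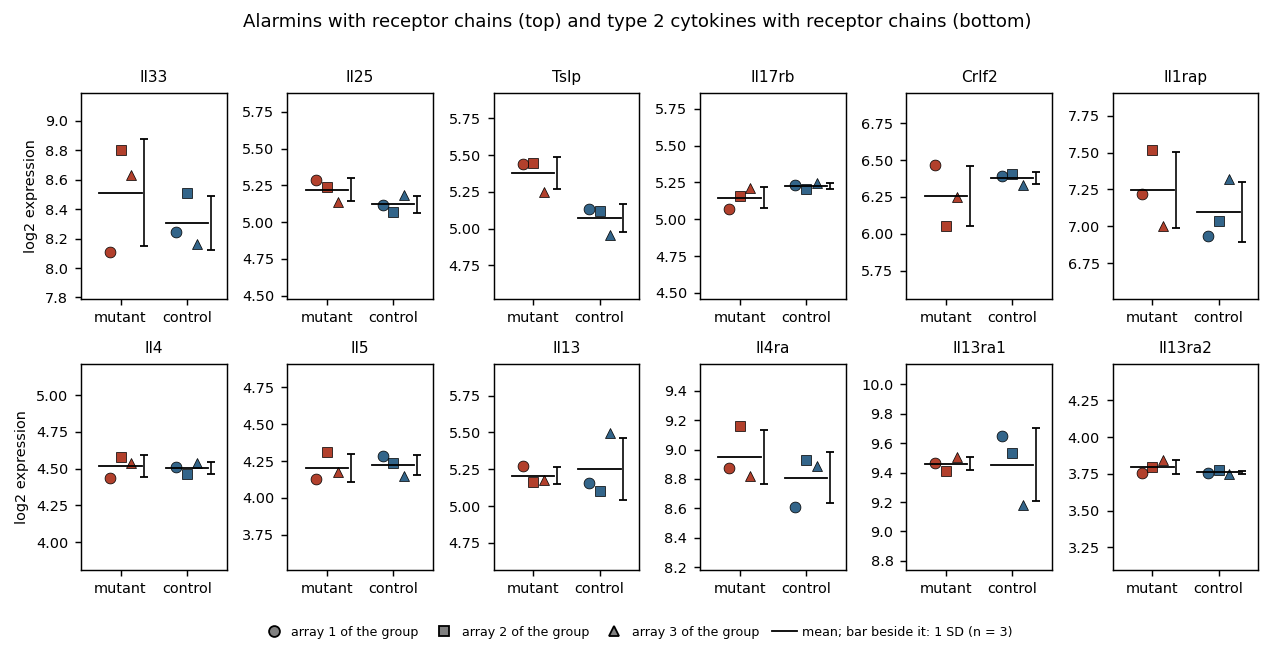
Log2 expression of alarmin and type 2 genes on each array, mutant left and control right, with group means and 1 SD beside them (n = 3). Each panel has its own axis, of the same span. For Tslp the mutant arrays, 5.25 to 5.45, lie above the control arrays, 4.96 to 5.13, whereas the groups of Il33, Il4, Il5 and Il13 overlap.

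The promoter window of Il33 is shown because it is an alarmin gene with a match to the forkhead core motif TGTTTAC, and the deleted genes encode forkhead factors. It is 1 of 2 Il33 windows in the RefSeq-based promoter table (mouse GRCm38.p6, chr19:29924863-29925162, plus strand), which runs over the 250 bases before and the 50 after a start, and capitals mark the match at bases 89 to 95.
Il33: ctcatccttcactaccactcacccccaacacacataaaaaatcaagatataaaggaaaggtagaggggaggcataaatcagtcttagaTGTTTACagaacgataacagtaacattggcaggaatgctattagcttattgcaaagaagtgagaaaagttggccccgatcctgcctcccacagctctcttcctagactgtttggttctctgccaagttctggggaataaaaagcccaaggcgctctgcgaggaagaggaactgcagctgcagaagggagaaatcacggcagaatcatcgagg
The table held 72 windows for 60 of the members and none for 18. Searched on both strands, TGTTTAC was found in 3 member windows (4.17%), those of Il33, Il21r and Il5ra, beside 3.65% of all 32851 windows. A match describes the letters and is not a binding site. Il33 differed by 0.21, Il5ra by 0.08 and Il21r by -1.32 between mutant and control airways, and none of these passed the test.

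Type 2 cytokine genes were close between the groups. Il4, the cytokine of T helper 2 differentiation, read 4.43, 4.58 and 4.54 on the mutant arrays, against 4.51, 4.46 and 4.54 on the control arrays. Il13, which drives mucus production and airway hyperresponsiveness, read 5.27, 5.16 and 5.18 on the mutant arrays, against 5.16, 5.10 and 5.50 on the control arrays. Il5, the eosinophil growth factor, read 4.13, 4.31 and 4.18 on the mutant arrays, against 4.28, 4.24 and 4.15 on the control arrays. The groups overlapped for all 3 genes. Differences were 0.01 for Il4 (95% interval -0.18 to 0.20), -0.05 for Il13 (-0.34 to 0.25) and -0.02 for Il5 (-0.23 to 0.19). These are low readings on the array, at which RMA compresses differences.

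Receptors of the type 2 cytokines also overlapped between groups. Il4ra, the chain shared by the IL-4 and IL-13 receptors, read 8.88, 9.16 and 8.82 on the mutant arrays, against 8.61, 8.93 and 8.89 on the control arrays, a difference of 0.14 (95% interval -0.18 to 0.46). Il13ra1, its partner in the receptor for IL-13, read 9.46, 9.41 and 9.51 on the mutant arrays, against 9.65, 9.53 and 9.18 on the control arrays, a difference of 0.01 (95% interval -0.31 to 0.33). Il13ra2, which encodes a receptor that binds IL-13 without the shared chain, read 3.76, 3.79 and 3.85 on the mutant arrays, against 3.76, 3.77 and 3.75 on the control arrays, a difference of 0.04. The mutant and control arrays interleaved in each case. Over the 11 type 2 genes, 7 lay above 0 and 4 below, with a median of 0.01, and none passed. The lowest was Il3ra, the IL-3 binding chain, at -0.31 (adjusted p = 0.635 by limma), and the highest was Il9r, the IL-9 receptor, at 0.15.

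Genes that IL-4 and IL-13 are known to induce in airways read mostly higher in mutant airways, and none passed the test. Of 16 measured, 13 lay above 0 and 3 below, with a median of 0.23 beside 0.02 for all genes. Retnla, a secreted product of alternatively activated macrophages and airway epithelium, averaged 11.9 ± 0.134 in mutant airways and 10.7 ± 0.396 in control airways (SD, n = 3 each), a difference of 1.20 (adjusted p = 0.113 by limma). Agr2, a protein disulfide isomerase needed for mucin folding, averaged 12.3 ± 0.246 in mutant airways and 11.0 ± 0.585 in control airways (SD, n = 3 each), a difference of 1.33 (adjusted p = 0.211 by limma). Ccl11, the eosinophil chemokine eotaxin, differed by 1.30 (adjusted p = 0.226 by limma), and Chil3, a chitinase-like lectin, by 0.81 (adjusted p = 0.413 by limma). The widest difference of the list went the other way. Itln1, a secreted lectin of goblet cells, read 7.18, 5.55 and 5.63 on the mutant arrays, against 5.503, 10.4 and 8.93 on the control arrays, a difference of -2.16 with overlap (adjusted p = 0.632 by limma). Alox15, a lipoxygenase, differed by -0.70, and both were named after their values were seen. For Retnla, Agr2 and Ccl11 every mutant array lay above every control array, which is 3 of 16 genes beside 9.33% of all genes. For Chil3 the groups overlapped. Clca1 had the highest difference of the list, 1.90 with overlap, whereas Muc5ac, Spdef, Ccl24 and Arg1 differed by 0.17, 0.11, 0.03 and 0.02. These genes too were named after their values were seen. Means of 3 eosinophil markers were 4.64, 4.80 and 4.55 on the mutant arrays and 4.77, 4.81 and 5.11 on the control arrays. Of these, Prg2 differed by -0.78, with control arrays 2 and 3 the highest. Epx differed by 0.0005 and Ccr3 by 0.08, both at low signal.

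Among the type 17 genes, the ligands Il17a and Il17f read lower in mutant airways. Il17a, the founding cytokine of the family, read 5.61, 5.34 and 5.51 on the mutant arrays, against 5.63, 6.23 and 5.91 on the control arrays. The groups did not overlap, but mutant array 1 and control array 1 were nearly level, and the difference was -0.44 (SE 0.166, 95% interval -0.84 to -0.04, adjusted p = 0.458 by limma). Il17a was among the members with control arrays 2 and 3 above the other 4, and its difference was -0.28 without control array 2 and -0.14 without both. Il17f, its neighbour on chromosome 1 and dimer partner, read 4.87, 4.78 and 4.78 on the mutant arrays, against 4.93, 4.88 and 5.65 on the control arrays. Its difference of -0.34 (adjusted p = 0.658 by limma) came largely with control array 3, the highest of the 6.

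The other type 17 genes had no common direction. Il17rc, a chain of the IL-17A and IL-17F receptor, read 7.59, 7.13 and 7.64 on the mutant arrays, against 7.21, 7.20 and 7.23 on the control arrays, a difference of 0.24 (adjusted p = 0.654 by limma). Mutant arrays 1 and 3 stood above all control arrays and mutant array 2 below them. Il17ra, its partner chain, read 7.80, 7.76 and 7.52 on the mutant arrays, against 7.42, 8.23 and 8.32 on the control arrays, a difference of -0.30 (adjusted p = 0.770 by limma). The highest arrays were control 2 and 3 and the lowest was control 1. Il17rd, a further member of the receptor family, differed by 0.29 with overlap. Its second row differed by 0.34 without overlap, with mutant arrays at 6.81 to 7.07 and control arrays at 6.53 to 6.79. Over the 13 type 17 genes, 5 lay above 0 and 8 below, with a median of -0.01, which was 0.072 with array weights, and none passed.

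Genes that IL-17 and IL-22 are known to induce in airway epithelium included the largest difference of the lists. Ccl20, the chemokine that attracts CCR6-bearing lymphocytes and dendritic cells, read 5.82, 5.45 and 5.59 on the mutant arrays, against 8.35, 10.9 and 10.2 on the control arrays. The groups were far apart, with a difference of -4.19 (SE 0.602), which is 18.3-fold on the linear scale, at an adjusted p of 0.0723 by limma. It passed when the lowest 40% of genes were left out (adjusted p = 0.0406), with array weights (0.00792), without control array 1 (0.00363), and without control array 1 and mutant array 2 (0.000729), all by limma. It did not pass in the other alternatives, among them those without any single mutant array, control array 2 or control array 3. Over all alternatives its adjusted p by limma ran between 0.000729 and 0.312 and its difference between -4.92 and -2.73. Of the 11 genes measured, 9 lay below 0 and 2 above, with a median of -0.40 beside 0.02 for all genes. For 6 of the 11, Ccl20 included, control arrays 2 and 3 stood above the other 4, an order found in 9.61% of all genes. Reg3g, a secreted antibacterial lectin, differed by -0.47 without overlap (adjusted p = 0.415 by limma), while Saa3, an acute-phase protein, differed by -1.19 and Lcn2, an iron-scavenging lipocalin, by -0.88, both with overlap.

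The lymphoid receptors had the lowest readings in mutant airways relative to control. Il2rb, the signalling chain shared by the IL-2 and IL-15 receptors, read 5.51, 6.31 and 5.62 on the mutant arrays, against 6.13, 8.002 and 8.001 on the control arrays. The high arrays were control 2 and control 3, control array 1 lay below mutant array 2, and the difference was -1.56 (SE 0.531, 95% interval -2.84 to -0.29, adjusted p = 0.413 by limma). Il2ra, the chain that gives the IL-2 receptor its high affinity, read 5.36, 6.04 and 5.60 on the mutant arrays, against 5.89, 7.51 and 6.76 on the control arrays. The same 2 arrays were on top, mutant array 2 lay above control array 1, and the difference was -1.06 (adjusted p = 0.469 by limma). Il7r, needed for the survival of naive T cells, read 6.30, 8.15 and 7.11 on the mutant arrays, against 7.42, 8.70 and 9.01 on the control arrays, a difference of -1.18 (adjusted p = 0.566 by limma). Here mutant array 2 lay above control array 1. Il21r, the IL-21 receptor of B and T cells, read 5.24, 5.75 and 5.39 on the mutant arrays, against 5.06, 7.57 and 7.71 on the control arrays, a difference of -1.32 (adjusted p = 0.599 by limma). Control array 1 gave the lowest value of all 6.

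Il15ra, which encodes the chain that presents IL-15 and is found beyond lymphocytes, had another pattern. It read 7.29, 7.36 and 7.31 on the mutant arrays, against 7.46, 7.25 and 7.14 on the control arrays, a difference of 0.04 (95% interval -0.21 to 0.28). Control arrays 2 and 3 were the lowest 2 arrays. The 5 lymphoid receptors had a median of -1.18 beside 0.02 for all genes, with 4 below 0 and 1 above, and none passed. Leaving out control array 1 brought 4 members past the threshold, Il2rb, Il21r, Il1r2 and Il27ra, with differences between -2.19 and -0.61 (5.13% of members beside 1.95% of all genes). Leaving out control array 1 and mutant array 2 brought 8 past it, which is 10.3% beside 4.83%. Control array 1 had the lowest T and B cell marker means of its group, and mutant array 2 the highest of its group. Leaving out either array therefore widens, by construction, differences of genes that follow these markers. Without control arrays 2 and 3 the differences were -0.32 for Il2rb, -0.22 for Il2ra, -0.23 for Il7r and 0.40 for Il21r, and none passed.

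T cell, B cell and plasma cell markers moved with these receptors over the arrays. Of 10 T cell markers 9 lay below 0, at a median of -1.49, and the same 9 stood higher on control arrays 2 and 3 than on the other 4. All 8 B cell markers lay below 0, at a median of -1.82, with that order in 8 of 8. The order held for 4 of 5 plasma cell markers, for 1 of 6 markers of NK and innate lymphoid cells, whose median was -0.03, and for 0 of 8 macrophage and 0 of 6 neutrophil markers. The part of lymphocyte number in the receptor readings was not tested.

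**Figure D3:**
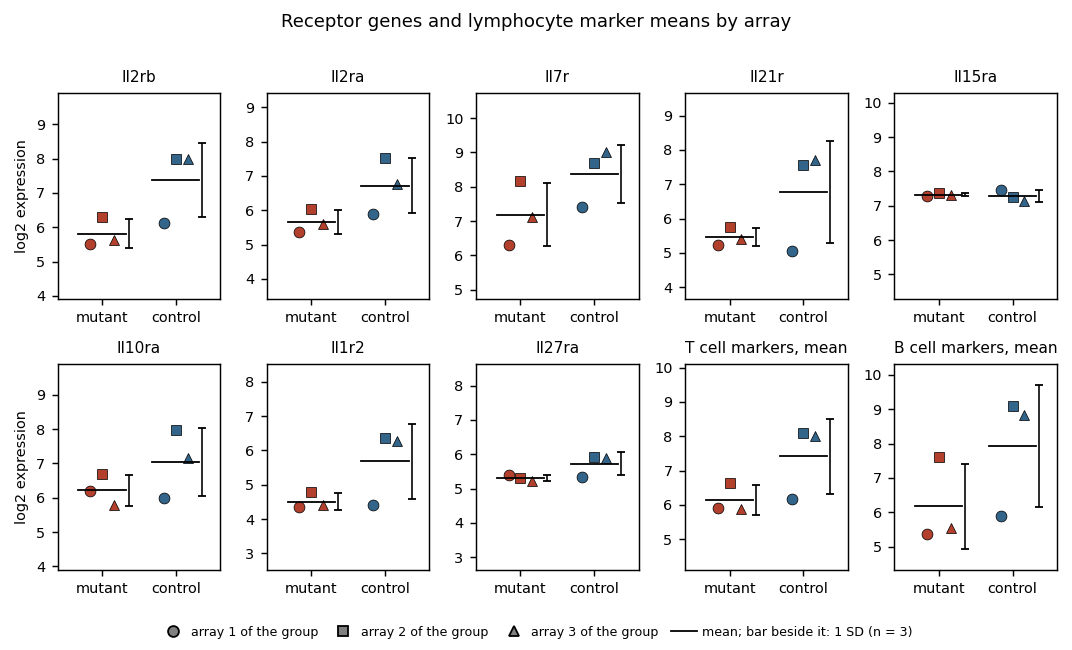
Log2 expression of lymphoid and other receptor genes, and the means of 10 T cell and 8 B cell markers, on each array, mutant left and control right, with group means and 1 SD (n = 3). Each panel has its own axis, of the same span. Control arrays 2 and 3 stand above control array 1 and the mutant arrays in every panel but that of Il15ra.

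The windows of Il21r and Il7r are shown as lymphoid receptor genes with a match to a motif searched. For Il21r (GRCm38.p6, chr7:125603179-125603478, plus strand) capitals mark the forkhead core TGTTTAC at bases 213 to 219, and for Il7r (chr15:9529827-9530126, minus strand) they mark TGTGGTT, the core bound by RUNX factors of lymphocytes, at bases 254 to 260.
Il21r: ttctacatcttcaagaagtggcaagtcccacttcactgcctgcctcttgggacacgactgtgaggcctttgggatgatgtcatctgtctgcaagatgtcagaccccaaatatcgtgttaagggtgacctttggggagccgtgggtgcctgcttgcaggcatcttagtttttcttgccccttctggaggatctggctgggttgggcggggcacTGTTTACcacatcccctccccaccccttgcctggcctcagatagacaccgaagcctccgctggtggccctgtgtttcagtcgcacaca
Il7r: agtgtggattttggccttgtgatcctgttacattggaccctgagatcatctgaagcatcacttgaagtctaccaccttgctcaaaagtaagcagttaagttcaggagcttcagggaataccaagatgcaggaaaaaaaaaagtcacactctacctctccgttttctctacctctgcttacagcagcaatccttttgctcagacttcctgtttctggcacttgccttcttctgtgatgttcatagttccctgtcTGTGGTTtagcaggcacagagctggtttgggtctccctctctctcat
On both strands, TGTGGTT was found in 15.3% of member windows beside 5.27% of all windows. The STAT motif TTCNNNGAA was found in 15.3% beside 8.30%, and the AP-1 motif TGANTCA in 19.4% beside 7.81%. The Il7r window also held a STAT match. Several members have more than 1 window and windows of a gene can overlap, so these shares are descriptions.

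Of the 5 genes listed as lymphoid ligands, 1 lay above 0 and 4 below, at small differences. Their median was -0.29 beside 0.02 for all genes, and none passed the test. Il7, a stromal and epithelial survival factor for lymphocytes, read 6.14, 6.11 and 6.04 on the mutant arrays, against 5.64, 5.93 and 5.53 on the control arrays. All mutant arrays lay above all control arrays, and the difference of 0.40 (SE 0.117, 95% interval 0.11 to 0.68) had an unadjusted p of 0.0133, the smallest of the members. Il2, the T cell growth factor, read 4.60, 4.61 and 4.55 on the mutant arrays, against 4.63, 5.12 and 4.97 on the control arrays, a difference of -0.32 (adjusted p = 0.506 by limma). The groups did not overlap, with control array 1 only just above mutant array 2, and the difference was -0.21 without control array 2 and -0.04 without control arrays 2 and 3. Il21, its neighbour on chromosome 3, differed by -0.29 with overlap, and Il16, a lymphocyte chemoattractant, by -0.37 with overlap. Il15 read 5.43, 6.69 and 5.64 on the mutant arrays, against 6.61, 6.10 and 5.84 on the control arrays, and was singled out after its values were seen. Mutant array 2 and control array 1 were high for Il15, as they were for 5 cardiac muscle markers, with means of 10.03, 11.0 and 9.27 on the mutant arrays and 11.4, 9.45 and 10.1 on the control arrays. The same arrays had the highest means of their groups for 5 adipocyte markers and for 5 endothelium markers. The part of these tissues in the Il15 readings was not tested.

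Among genes of the IL-12 and IL-18 families, the receptor Il18r1 gave the highest difference of all members. It encodes the IL-18 binding chain and read 9.32, 9.42 and 9.49 on the mutant arrays, against 8.65, 9.25 and 9.01 on the control arrays. The groups did not overlap, and the difference was 0.44 (SE 0.157, 95% interval 0.06 to 0.82, adjusted p = 0.433 by limma). It was 0.28 without control array 1. Il18rap, the accessory chain encoded next to it, differed by 0.14 with overlap. Il18, the ligand, read lower at -0.32 and Il18bp, its soluble inhibitor, higher at 0.09, both with overlap. Il27ra, a receptor of T cells, read 5.39, 5.31 and 5.22 on the mutant arrays, against 5.35, 5.93 and 5.90 on the control arrays. Of the 6 arrays, control 2 and 3 were high, and the difference was -0.42 (adjusted p = 0.483 by limma). Il12rb2, the IL-12 receptor chain of T helper 1 cells, had the same 2 arrays highest and differed by -0.22. Of 6 genes known to be induced by IL-12 and IL-18, 4 lay above 0 and 2 below, with a median of 0.04, and none passed. Ccl5, a T cell chemokine, differed by -1.10 without overlap (adjusted p = 0.293 by limma), whereas Tbx21, the factor of T helper 1 cells, differed by 0.17 without overlap (adjusted p = 0.515 by limma). Cxcl9, a chemokine for activated T cells, differed by 0.27 with overlap.

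The window of Il18r1 is shown as that of the member with the highest difference (1 of 3 windows, GRCm38.p6, chr1:40465371-40465670, plus strand). Capitals mark TGTGGTT at bases 272 to 278, downstream of the start.
Il18r1: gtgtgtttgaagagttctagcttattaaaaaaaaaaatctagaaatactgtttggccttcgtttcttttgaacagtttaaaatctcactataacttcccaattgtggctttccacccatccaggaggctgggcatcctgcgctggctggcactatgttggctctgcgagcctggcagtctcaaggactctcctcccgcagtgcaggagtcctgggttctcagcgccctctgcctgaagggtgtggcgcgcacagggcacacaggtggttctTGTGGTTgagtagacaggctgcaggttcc
The forkhead core was not among the letters of this window.

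In the IL-1 and IL-36 family the widest difference was that of Il1r2. It encodes a decoy receptor for IL-1 and read 4.34, 4.78 and 4.42 on the mutant arrays, against 4.42, 6.36 and 6.27 on the control arrays, a difference of -1.17 (adjusted p = 0.521 by limma). Control arrays 2 and 3 were high, and control array 1 lay among the mutant arrays. Il1a and Il1b, which encode both forms of IL-1 and are neighbours on chromosome 2, differed by 0.35 and -0.42, each with overlap. Il1f5, the IL-36 receptor antagonist, read 4.54, 4.51 and 4.52 on the mutant arrays, against 4.47, 4.36 and 4.37 on the control arrays, a difference of 0.13 (adjusted p = 0.651 by limma). The groups did not overlap, at a low signal. Il1f8, an IL-36 agonist, also read higher without overlap, by 0.14. Over the 8 soluble members of the family the median was 0.10, with 6 above 0 and 2 below.

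Receptors and ligands of the IL-6 and IL-10 families completed the members. Il6ra, the IL-6 binding chain, read 8.81, 8.57 and 8.88 on the mutant arrays, against 8.59, 8.31 and 8.63 on the control arrays. Array 2 was the lowest in either group, the groups overlapped, and the difference was 0.24 (adjusted p = 0.601 by limma). Il6st, the gp130 chain through which the family signals, differed by -0.03 (95% interval -0.21 to 0.14), and Il6 itself by -0.04. Il10, an anti-inflammatory cytokine, read 4.40, 4.41 and 4.50 on the mutant arrays, against 4.50, 4.80 and 4.97 on the control arrays. Mutant array 3 and control array 1 were nearly level, and the difference was -0.32 (adjusted p = 0.482 by limma), or -0.068 without control arrays 2 and 3. Il10rb, a chain shared by the receptors of IL-10, IL-22 and interferon lambda, read 9.17, 9.26 and 9.20 on the mutant arrays, against 9.00, 9.16 and 9.01 on the control arrays, a difference of 0.15 without overlap (adjusted p = 0.620 by limma). Il10ra, the IL-10 binding chain of leukocytes, differed by -0.82, with control arrays 2 and 3 the highest. Il34 differed by 0.28 without overlap.

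**Figure D4:**
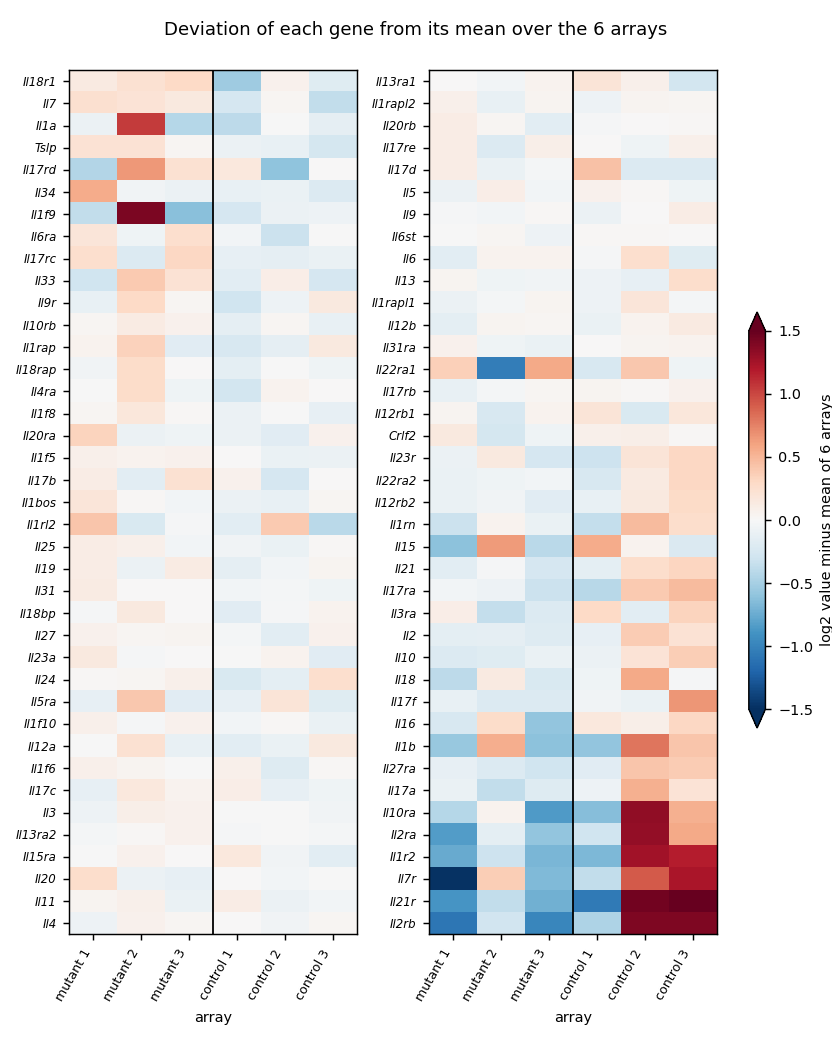
Values of the 78 members on each array relative to the gene's mean over the 6 arrays, on the log2 scale, mutant arrays left and control arrays right. Genes run by their difference, highest at the top left and lowest at the bottom right, and values past an end of the colour scale share its end colour. A red block holds Il2rb, Il21r, Il7r, Il1r2 and Il2ra on control arrays 2 and 3. Single dark red cells lie elsewhere, such as that of Il1f9 on mutant array 2.

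In the gene order of GRCm38.p6 there were 19 pairs of members next to each other, of which 11 differed in the same direction and 8 in opposite directions. The pairs furthest apart were on chromosome 7, where Il21r differed by -1.32 and Il4ra by 0.14, and on chromosome 2, where Il2ra differed by -1.06 and Il15ra by 0.04.

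Of 70 genes that act with the interleukins, 1 passed the test, beside 0.266% of all genes. An unadjusted p under 0.05 in limma was found for 13 (18.6%), beside 10.1% of all genes. These lists were chosen with earlier results of these data known, so the shares are descriptions and not a test of the lists. Osmr, the receptor chain that pairs with gp130 for oncostatin M and with Il31ra for IL-31, rose in mutant airways. It read 9.92, 10.1 and 9.99 on the mutant arrays, against 9.31, 9.13 and 9.28 on the control arrays, far apart, at a difference of 0.76 (SE 0.0899, adjusted p = 0.0391 by limma), or 1.70-fold. The direction was the same in the alternatives, but the call was lost without mutant array 1 (adjusted p = 0.131 by limma), mutant array 2 (0.0983), mutant array 3 (0.212), control array 2 (0.159), control array 3 (0.195), or control arrays 2 and 3 (0.372). Over all alternatives its adjusted p by limma ran between 0.0102 and 0.372. With the replicate number as a block the call of Osmr was lost too. Il31ra differed by -0.06, Il31 by 0.09 without overlap, and Osm, the ligand, by -0.13. Among the other partner genes, Ebi3, a subunit of IL-27 and IL-35, differed by -0.37, Lif, a gp130 ligand, by 0.71 and Csf2rb2, the IL-3 receptor chain of mice, by -1.01, and these did not pass.

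Genes that signal inside the cell gave no call in any list. Of 9 kinases and transcription factors of interleukin receptors 0 passed, with 3 above 0 and 6 below. Stat3, the factor used by gp130 and IL-10 receptors, differed by 0.24, and Stat5a, used by the IL-2 and IL-7 receptors, by -0.29, both without overlap (adjusted p = 0.433 and 0.336 by limma). Stat4, which serves the IL-12 receptor of T cells, differed by -1.14 with overlap, and Tyk2 by -0.23 without overlap. Of 9 adaptors and kinases of the IL-1 and IL-17 receptors 0 passed, with Irak3, an inhibitor of IL-1 signalling, at -0.35 and Traf6 at -0.13. Of 7 feedback inhibitors 0 passed, with Tnfaip3, which restrains NF-kappaB, at -0.48, Zc3h12a, a nuclease that degrades cytokine transcripts, at -0.60, Socs2 at 0.27 and Socs3 at 0.38. Control arrays 2 and 3 stood above the other 4 for 2 of 9, 2 of 9 and 3 of 7 genes of these lists, beside 9.61% of all genes. Stat5a, Stat4, Irak3, Tnfaip3 and Zc3h12a were among them. The same order held for 4 of the 5 lymphoid receptors.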

How the data were processed

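Total RNA of 6 dissected airway samples was measured on Affymetrix Mouse Gene ST arrays. The authors deposited 1 table of log2 expression values, and oligo, RMA and limma are named per the submitters' processing notes. Tool versions and joint or separate normalisation of the arrays were not given in the sources. RMA removes background and equalises arrays, and differences at low signal come out smaller than they are. Neither detection calls nor scan dates entered, and batches were not tested. Sample numbers in the labels are not tied to separate mice, so p-values cover only the spread of these samples, part of which may be technical. No arrays held identical values (0 pairs).

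The annotation named 1 gene for 21789 rows, several for 1621 and listed none for 12146. The brightest row of each of 19938 genes was compared between mutant and control in limma 3.58.1 (R 4.3.3, lmFit and eBayes, genotype as the only term, no filter, two-sided). Adjustment followed Benjamini and Hochberg and covered every gene, and the threshold was 0.05. Differences are mutant minus control on the log2 scale, with 95% intervals. All 78 members matched RefSeq symbols. The members and lists were chosen with earlier results of these data known.

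Values on each array were given for Il33, Il25, Tslp, Il17rb and Crlf2, for Il4, Il5, Il13 and their receptor chains Il4ra, Il13ra1 and Il13ra2, for lymphoid receptors, for members differing by 0.5 or more without overlap (0 members) and for the 6 members with the smallest p in each direction. Other members and listed genes were named up to 4 per list by p, and exceptions were chosen after their values were seen. The alternatives comprised a second quantile normalisation, centring on array medians, a filter that drops the dimmest 40% of genes, a replicate block, array weights, averaging a gene's rows, a trended robust eBayes, and fits without single arrays or without 2 pairs of arrays. The fit was tested on simulated data. Python 3.11.15 and pandas 2.3.3 handled the tables, and matplotlib 3.10.9 drew the figures.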

Additional observations from a re-analysis of the deposited data

How the results depend on the processing

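With 3 arrays per group and most members at low signal, differences of about the size of their intervals could not be resolved. Repeated quantile normalisation, median centring and the mean of a gene's rows changed no call among the members. Members called numbered 0, against 0 to 4 when single arrays were left out and 8 without control array 1 and mutant array 2. Pathway genes called numbered 1, against 2 without the lowest 40% of genes, 4 with array weights, 13 without control array 1 and mutant array 2, 0 without control arrays 2 and 3, and 0 to 7 when single arrays were left out. All genes called numbered 53, against 291 with array weights, 83 with an intensity trend and robust eBayes, 963 without control array 1 and mutant array 2, 0 without control arrays 2 and 3, and 9 to 388 when single arrays were left out. With the replicate number as a block, 0 pathway genes and 0 genes in all were called. The adjusted p by limma was then 0.262 for Osmr and 0.274 for Ccl20. Deviations of same-numbered arrays from their group means correlated at 0.136, -0.091 and -0.040. The labels do not say whether equal numbers pair the samples, and a shared litter, day or batch was not tested. Members whose groups did not overlap numbered 12, against 11 with repeated quantile normalisation and 9 with arrays centred on their medians. They numbered 4 of the 33 members left without the lowest 40% of genes. Fewer arrays per group make overlap rarer by construction. Such members numbered 15 to 29 without single arrays and 42 without control array 1 and mutant array 2. Without control arrays 2 and 3 they numbered 38. Shares of all genes without overlap were given only for the full set of arrays and genes. The counts in these alternatives therefore cannot show whether members differ from the array as a whole. The alarmin median of 0.12 was -0.014 with array weights, 0.010 without control array 1 and mutant array 2, 0.18 without control arrays 2 and 3 and 0.037 to 0.15 without single arrays. The type 2 median of 0.01 was -0.058 without control array 1 and mutant array 2 and -0.01 to 0.05 without single arrays. The type 17 median of -0.01 was 0.072 with array weights, 0.089 without control array 1 and mutant array 2 and -0.07 to 0.03 without single arrays. The lymphoid receptor median of -1.18 was -2.15 without control array 1 and mutant array 2, -0.22 without control arrays 2 and 3 and -1.66 to -0.87 without single arrays. Without control arrays 2 and 3 the lone control array is assumed to vary like the mutant ones. The cause of these changes was not tested.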

Other observations

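Some members outside the rule for named genes were chosen after their values were seen because a single array stood apart. Il1f9, an IL-36 agonist of epithelium, read 5.33, 7.12 and 5.07 on the mutant arrays, against 5.45, 5.62 and 5.62 on the control arrays. Il1a, an epithelial alarm cytokine of the IL-1 family, read 4.94, 6.09 and 4.60 on the mutant arrays, against 4.65, 5.03 and 4.90 on the control arrays. For both genes mutant array 2 was the highest of the 6. The other mutant arrays lay below all control arrays for Il1f9 and overlapped them for Il1a. Il22ra1, the epithelial receptor chain of IL-22, read 8.69, 7.29 and 8.90 on the mutant arrays, against 8.09, 8.73 and 8.26 on the control arrays. There mutant array 2 was the lowest of the 6, and it also had the lowest mean of the airway epithelium markers, 9.56 beside 10.2 and 10.03 on the other mutant arrays and 10.02, 9.86 and 9.62 on the control arrays. The part of epithelial content in the Il22ra1 readings was not tested.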
